A study of Mus musculus with 4 samples.

Results

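The cells described here are neurons of the developing mouse arcuate nucleus that carry Dlx1 or Dlx2 messenger RNA but none from Lhx1, Ghrh or Th. They were selected by counts of unique molecular identifiers (UMIs, tags that mark single RNA molecules), so the genes of the selection are described and not tested. A cell was kept with 200 to 4500 genes, at most 10% of UMIs from mitochondrial genes and at most 10 UMIs of the globin gene Hba-a1. A member had at least 1 UMI of Dlx1 and Dlx2 together, at least 2 of the neuron gene Stmn2, fewer than 3 of Pomc, and 0 of Lhx1, Lhx1os, Ghrh, Th and Otp. There were 169 such cells among 6351 kept cells, from 6465 barcodes in all. They made up 2.66% of kept cells (exact Clopper-Pearson 95% interval 2.28 to 3.09%) and 4.22% of the 4006 kept cells with at least 2 Stmn2 UMIs (3.62 to 4.89%).

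The series profiled the arcuate nucleus of E15 C57BL/6 embryos carrying the Pomc-eGfp transgene, a reporter in which Pomc regulatory sequence drives eGFP and which marked the tissue for dissection. The sample titles give the age as E15.5. Tissue of 6 embryos was pooled into 1 droplet library that was sequenced in 4 runs, and no cell can be traced to an embryo or a run. There was no second condition and no replicate, so there is no test between samples, and intervals below cover counting error only. All cells share the strain and the transgene.

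Dlx genes encode homeodomain transcription factors that lie in the genome as facing pairs, Dlx1 with Dlx2 and Dlx5 with Dlx6. They are best known for building GABA neurons of the ventral forebrain, where they act on genes for GABA synthesis (Gad1, Gad2) and for loading GABA into vesicles (Slc32a1). In the hypothalamus Dlx genes mark GABA neurons of several kinds. Among these are growth hormone-releasing hormone (Ghrh) neurons and neurons that make tyrosine hydroxylase (Th), while Lhx1, a LIM homeodomain factor, marks a separate group. Hmx2 and Hmx3 are homeodomain factors needed for Ghrh expression, Tbx3 is a T-box factor of the tuberal hypothalamus, and Nkx2-1 is the homeodomain factor that defines the ventral hypothalamus.

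The selecting genes were sparse. Dlx1 and Dlx2 together had 1 UMI in 96 members, 2 in 41 and 3 or more in 32, with a median of 1 and a highest count of 11. Dlx2 alone was found in 79 members, Dlx1 alone in 48 and both in 42. Stmn2 ran from 2 to 35 UMIs with a median of 5. Of 508 kept cells with Dlx1 or Dlx2 and at least 2 Stmn2 UMIs, 195 had Lhx1 or Lhx1os, 97 had Ghrh or Th, 84 had Otp and 12 had at least 3 Pomc UMIs, with overlaps between these exclusions. A further 146 kept cells had Dlx1 or Dlx2 with fewer than 2 Stmn2 UMIs and stayed outside. Dlx1 lies on mouse chromosome 2 from 71528113 to 71533981 on the plus strand of GRCm38, inside the span of its antisense gene Dlx1as, from 71516454 to 71537891 on the minus strand.

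The members were compared with 3 groups of kept cells with at least 2 Stmn2 UMIs. The 168 Lhx1-positive Dlx neurons met the same rule but had Lhx1 or Lhx1os, and the 62 Ghrh/Th-positive Dlx neurons met it but had Ghrh or Th. The 3837 other neurons were all remaining cells with at least 2 Stmn2 UMIs, and hold both Dlx groups. Members had a median of 2947 UMIs, from 1819 to 12276, against 2826 in Lhx1-positive Dlx neurons, 3065 in Ghrh/Th-positive Dlx neurons and 3439 in other neurons. For a further comparison, 101 kept cells with no Stmn2 and at least 5 collagen UMIs (collagen cells) were used, with a median of 3891 UMIs. These cells express genes of their own, so their values are not a measure of free RNA alone. Levels are counts per 1000000 UMIs (CPM), with the UMIs of a gene and of all genes pooled over a group's cells.

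Across 10913 genes with at least 50 UMIs in members and other neurons together, 268 (2.46%) were at least 2-fold higher in members and 936 (8.58%) were at least 2-fold lower. Members held 3.76% of these UMIs, so a gene at the limit of 50 had about 1.88 UMIs due in members, and many of these calls rest on a few UMIs. Of 4426 genes with at least 500 UMIs, a limit chosen after seeing the data, 17 (0.384%) were at least 2-fold higher and 99 (2.24%) lower. Among genes with at least 20 UMIs in members and a UMI in at least 10% of them, the highest ratio outside the selecting genes was that of Hmx2, with 155 CPM in members against 15.9 in other neurons, a ratio of 9.71 (95% interval 7.54 to 12.4). Dlx6 followed at 7.14 (4.64 to 10.7), Dlx5 at 6.97 (5.27 to 9.11) and the antisense transcript Dlx6os1 at 6.84 (4.97 to 9.28). Cited1, a transcriptional co-activator, was next at 4.36 (3.84 to 4.93). In cells at or above the median depth the log2 ratios were higher, 4.16 for Hmx2 in place of 3.28, 3.94 for Dlx6 in place of 2.84 and 3.61 for Dlx5 in place of 2.80.

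The windows around the RefSeq start sites of 3 of the 15 leading genes are shown, because these genes were higher together in cells chosen by RNA of homeodomain factors. Whether such factors bind or act on these genes was not tested. They run from 250 bases before to 50 after a start, 5′ to 3′ on the gene's strand in GRCm38.p6, and capitals mark TAATTA, a core that many homeodomain proteins bind and that reads the same on both strands.
Hmx2, chr7:131548507-131548806, plus strand: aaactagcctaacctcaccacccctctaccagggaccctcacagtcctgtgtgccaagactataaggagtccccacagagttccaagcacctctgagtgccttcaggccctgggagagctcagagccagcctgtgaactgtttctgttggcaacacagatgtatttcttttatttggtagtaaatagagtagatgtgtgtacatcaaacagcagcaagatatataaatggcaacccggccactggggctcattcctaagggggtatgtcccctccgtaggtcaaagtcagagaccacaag
Dlx6os1, chr6:6869484-6869783, minus strand: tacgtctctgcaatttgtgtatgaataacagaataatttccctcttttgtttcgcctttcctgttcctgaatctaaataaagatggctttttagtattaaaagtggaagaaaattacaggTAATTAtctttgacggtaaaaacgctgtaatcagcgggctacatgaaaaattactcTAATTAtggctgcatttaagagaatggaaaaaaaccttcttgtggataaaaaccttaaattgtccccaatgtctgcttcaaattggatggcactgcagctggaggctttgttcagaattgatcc
Asb4, chr6:5383136-5383435, plus strand: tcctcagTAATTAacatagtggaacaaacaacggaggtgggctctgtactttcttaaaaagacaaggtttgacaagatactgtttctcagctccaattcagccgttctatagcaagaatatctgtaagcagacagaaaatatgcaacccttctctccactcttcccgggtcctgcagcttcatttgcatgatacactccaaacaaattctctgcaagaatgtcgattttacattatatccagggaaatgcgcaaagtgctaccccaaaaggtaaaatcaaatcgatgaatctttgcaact
RefSeq windows were at hand for 11 of the 15 leading genes, and those of Dlx5, Dlx6, Tbx3 and Gm13889 were not used here. TAATTA stood in 3 of the 18 windows of these 11 genes, both windows of Dlx6os1 and 1 of Asb4, and in 5.29% of all 32851 windows of the same length. The Hmx2 window above holds none.

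The cell type label was checked with Slc32a1, the one marker that the rule did not use. Slc32a1 had a UMI in 25 of 169 members (14.8%, 9.81 to 21.1%), from 1 to 3 UMIs a cell, against 268 of 3837 other neurons (6.98%, 6.20 to 7.84%) and 1 of 101 collagen cells (0.990%). Its pooled level was 2.69-fold that of other neurons (1.82 to 3.86). Gad1, which makes most GABA in the brain, was found in 22 members (13.0%) against 4.74% of other neurons, with a CPM ratio of 3.38 (2.19 to 5.03). Gad2, the second GABA-making enzyme, was found in 24 members (14.2%) against 6.83%, with a ratio of 2.27 (1.48 to 3.34). On the log2 scale the Gad2 ratio went from 1.18 to 0.85 without cells with at least 2 habenula- and thalamus-like markers. Such cells were left out of both groups, 25 members and 1353 of the 3837 other neurons, so the compared group changed too. Neither Gad gene had a UMI in the 101 collagen cells (0 to 3.59%).

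Any of the 3 GABA genes was present in 60 members (35.5%, 28.3 to 43.2%), in 15.45% of other neurons (14.3 to 16.6%) and in 1 collagen cell. With each cell thinned to 2167 UMIs the shares were 28.0% (21.2 to 35.7%) and 11.6% (10.5 to 12.7%), over the 157 members and 3569 other neurons deep enough. The share was 32.7% in the 55 members at or above the median depth of 3338 UMIs and 36.8% in the 114 below it. These values did not go against the GABA label for the group, though most members showed no UMI of these genes. The Lhx1-positive Dlx neurons had a share of 41.1% (33.6 to 48.9%) and the Ghrh/Th-positive Dlx neurons 40.3% (28.1 to 53.6%), intervals that overlap that of the members. None of the 4 GABA genes with enough UMIs was 2-fold apart from Lhx1-positive Dlx neurons, and the Slc32a1 ratio to those cells was 0.770 (0.468 to 1.26).

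Slc17a6, the vesicular glutamate transporter of the hypothalamus and thalamus, was found in 8 members (4.73%, 2.07 to 9.11%) and in 706 other neurons (18.4%, 17.2 to 19.7%). The share in collagen cells was 1.98%. Its level was 18.9 CPM in members and 60.3 in other neurons, a ratio of 0.314 (0.156 to 0.565), or -1.67 on the log2 scale. In cells at or above the median depth the log2 ratio was -0.81, which is not 2-fold, and without the tenth of members with the most UMIs it was -3.19. Of the 8 members with Slc17a6, 6 were among the 19 members with at least 2 habenula- and thalamus-like markers and no Hmx2, Hmx3 or Tbx3, described below.

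Dlx5 and Dlx6, the other pair of the family, were not used by the rule. Dlx5 had a UMI in 53 members (31.4%, 24.5 to 38.9%), of which 40 had 1 UMI and 13 had 2 to 4, against 5.06% of other neurons and none of the collagen cells. Dlx6 was found in 30 members (17.8%) against 2.48%. Dlx5 or Dlx6 was present in 70 members (41.4%, 33.9 to 49.2%), in 49.4% of Lhx1-positive Dlx neurons (41.6 to 57.2%) and in 22.6% of Ghrh/Th-positive Dlx neurons (12.9 to 35.0%). Of the 7 Dlx partner genes with enough UMIs, 3 were at least 2-fold higher than in other neurons and 1, the ETS factor Etv1, was lower, against 2.46% and 8.58% of all genes. The median log2 ratio of the list was -0.15, and that of all genes tested was -0.03.

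Hmx2 and Tbx3 were among the transcription factors that set the members apart from the Lhx1-positive Dlx neurons, beside others given below. Hmx2 (mouse chromosome 7, 131548773 to 131558014, plus strand, GRCm38) had a UMI in 53 members, 27 with 1 UMI, 16 with 2 and 10 with 3 or 4. That was 31.4% (24.5 to 38.9%), against 3 of 168 Lhx1-positive Dlx neurons (1.79%, 0.370 to 5.13%), 16 of 62 Ghrh/Th-positive Dlx neurons (25.8%, 15.53 to 38.5%), 4.07% of other neurons and 0.990% of collagen cells. Its neighbour and relative Hmx3 was found in 9 members (5.33%) and in 0.912% of other neurons. Tbx3 (mouse chromosome 5, 119670669 to 119684724, plus strand) had a UMI in 51 members, with at most 4 in a cell. That was 30.2% (23.4 to 37.7%), against 2 Lhx1-positive Dlx neurons (1.19%), 1 Ghrh/Th-positive Dlx neuron (1.61%) and 11.2% of other neurons (10.2 to 12.2%).

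At least 1 of Hmx2, Hmx3 and Tbx3 was present in 86 members (50.9%, 43.1 to 58.6%). The share was 2.98% in Lhx1-positive Dlx neurons (0.973 to 6.81%), 29.0% in Ghrh/Th-positive Dlx neurons (18.2 to 41.9%), 14.8% in other neurons (13.6 to 15.9%) and 1.98% in collagen cells. After thinning, the same order held, with 42.7% in members, 3.45% in Lhx1-positive Dlx neurons, 20.4% in Ghrh/Th-positive Dlx neurons and 10.3% in other neurons. For Tbx3 the members' interval lay above those of both Dlx groups. For Hmx2 it overlapped that of the Ghrh/Th-positive group, where the CPM ratio was 1.53 (0.943 to 2.59).

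**Figure D1:**
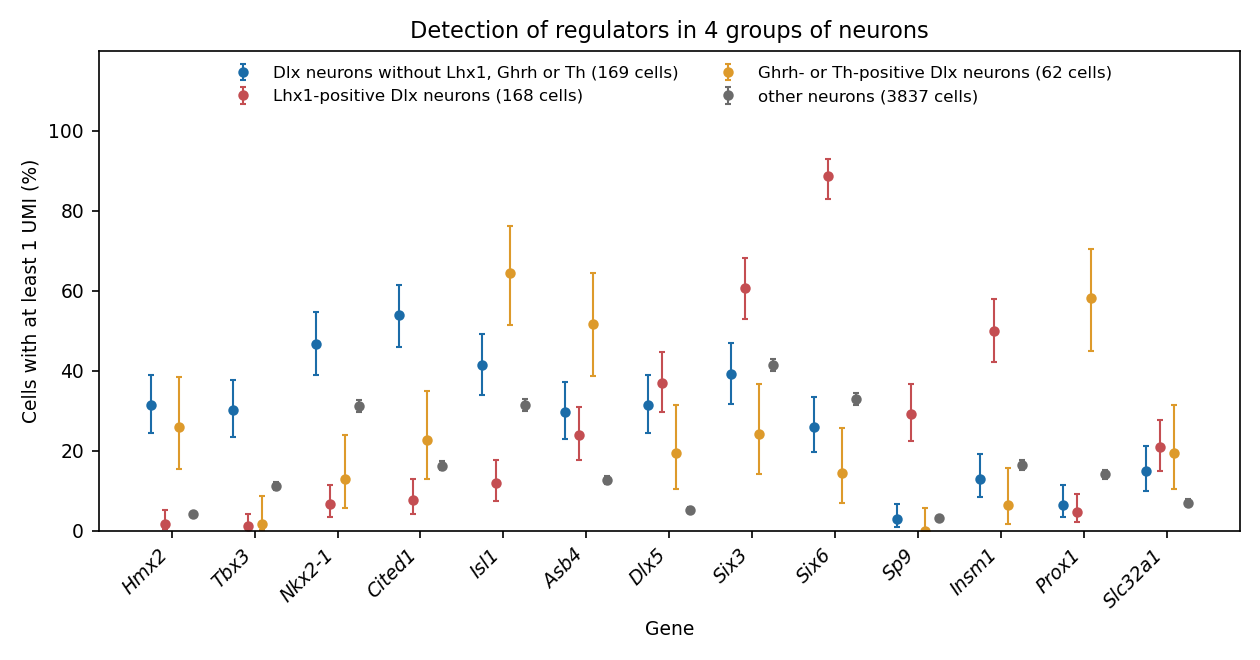
Share of cells (%) with at least 1 UMI of each of 13 genes in the Dlx neurons without Lhx1, Ghrh or Th and in 3 compared groups, where points are shares and bars exact 95% binomial intervals for counting error. Hmx2, Tbx3, Nkx2-1 and Cited1 are found in 30.2 to 53.8% of the 169 members and in 1.19 to 7.74% of the 168 Lhx1-positive Dlx neurons, while Sp9 and Six6 are found in more of the latter.

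Of 3371 genes with at least 50 UMIs in members and Lhx1-positive Dlx neurons together, 50 (1.48%) were at least 2-fold higher in members and 57 (1.69%) at least 2-fold lower. Tbx3 led the higher genes with a ratio of 32.4, whose interval of 8.65 to 272 reflects 2 UMIs in the compared cells. Hmx2 stood at 16.0 (6.59 to 50.4) and Cited1 at 14.5 (9.01 to 24.8). Nkx2-1 was present in 79 members (46.7%) and 11 Lhx1-positive Dlx neurons (6.55%), at 256 against 31.0 CPM, a ratio of 8.26 (4.92 to 14.8). In cells at or above the median depth the log2 ratios were lower, 2.996 for Tbx3 in place of 5.02, 2.37 for Hmx2 in place of 3.997 and 1.86 for Nkx2-1 in place of 3.05. Isl1, the LIM homeodomain factor of several arcuate neuron types, was present in 70 members (41.4%) and 11.9% of Lhx1-positive Dlx neurons, a CPM ratio of 4.58 (2.97 to 7.33).

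The other leading genes on this side were Foxp2, a forkhead factor with 35 UMIs in members and 2 in the compared cells, and Rgs4, a brake on G-protein signalling, with 94 and 6. Tbx3os1 had 43 and 3, Fxyd7, a partner of the sodium pump, had 100 and 11, and Ntng1, a netrin-G adhesion protein, had 27 and 3. Tbx3os1 is antisense to Tbx3 and overlaps its first bases, at 119570130 to 119671365 on the minus strand. These ratios lay between 7.98 and 15.52. The genes were picked for their high ratios, so their intervals, which all began above 2, give no separate support. Foxp2, Tbx3os1 and Ntng1 had fewer UMIs in both groups together than the limit set for a call. Foxp2 also had a UMI in 30.7% of collagen cells and 21.4% of other neurons, above the 11.2% of members.

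On the lower side stood regulators found in more of the Lhx1-positive Dlx neurons. Sp9, a zinc-finger factor of forebrain interneurons, was found in 5 members (2.96%) and 49 of 168 Lhx1-positive Dlx neurons (29.2%), 14.1-fold lower (6.18 to 39.6). Six6, a homeobox gene of the eye and ventral hypothalamus, was found in 44 members (26.0%) and 149 compared cells (88.7%), 8.16-fold lower (6.30 to 10.7). Its relative Six3 was 2.19-fold lower (1.75 to 2.75), which was under 2-fold with at least 2 Dlx UMIs, at a log2 ratio of -0.89 in place of -1.13.

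Insm1, a zinc-finger factor of newborn neurons and endocrine cells, was 5.80-fold lower in members (3.82 to 9.12). Igfbp5, which binds insulin-like growth factors, was 6.11-fold lower (3.93 to 9.87). Penk, the enkephalin precursor, had 5 UMIs in members and 52 in Lhx1-positive Dlx neurons. Nxph1, a ligand of neurexins, had 7 and 71, Slc18a2, the vesicular monoamine transporter, had 3 and 30, and the receptor gene Kit had 1 and 24. Ddc, which makes dopamine from its precursor, was found in 8 members (4.73%) and 19.0% of Lhx1-positive Dlx neurons. Sp8, a relative of Sp9, or Sp9 was present in 5 members (2.96%, 0.967 to 6.77%), 29.2% of Lhx1-positive Dlx neurons (22.4 to 36.7%) and 1.61% of Ghrh/Th-positive Dlx neurons. Of the 5 members, 3 had at least 2 UMIs of Dlx1 and Dlx2.

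**Figure D2:**
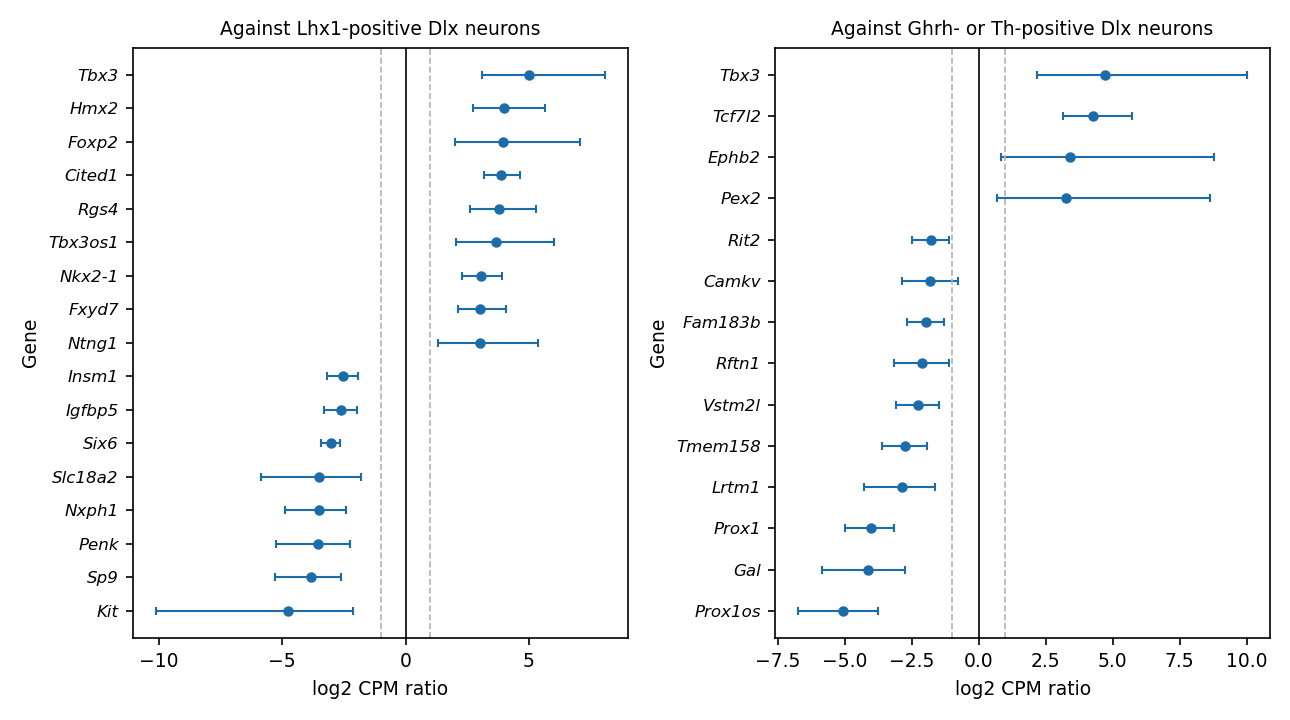
CPM ratio of members to each compared Dlx group (log2 scale, 0 is equal, dashed lines mark 2-fold) for leading genes with UMIs in both groups, with conditional exact 95% intervals for counting error. Tbx3 has the highest ratio in both panels, and Kit and Prox1os the lowest.

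Against the 62 Ghrh/Th-positive Dlx neurons, 69 of 2539 genes (2.72%) were at least 2-fold higher in members and 47 (1.85%) lower. Prox1, a homeobox gene of that lineage, was found in 11 members (6.51%) and 36 of 62 compared cells (58.1%), at 22.4 against 362 CPM, or 16.2-fold lower in members (8.90 to 31.8). Its antisense transcript Prox1os, which overlaps it, had 5 UMIs in members and 60 in compared cells. Gal, the galanin precursor, had 5 and 31, a level 17.4-fold lower in members (6.70 to 57.2). Gsx1, a homeobox factor with 13 and 18 UMIs, was 3.88-fold lower (1.80 to 8.61), and Asb4, a gene of Pomc and Ghrh neurons, was 2.14-fold lower (1.49 to 3.05). The Asb4 difference was under 2-fold in 3 alternatives, with a log2 ratio of -0.93 with at least 3 Stmn2 UMIs, -0.97 without the tenth of members with the most UMIs and -0.87 without cells with at least 2 habenula- and thalamus-like markers.

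The remaining leading genes lower in members were Lrtm1, Tmem158, Vstm2l, Rftn1, Fam183b, Camkv and Rit2, a small GTPase of neurons, 3.44- to 7.36-fold lower. On the higher side, Tbx3 stood at 26.1 against 1 UMI (4.53 to 1043) and Tcf7l2, a Wnt pathway factor, at 19.4 (8.81 to 53.2). Zic4 and Zic5, zinc-finger factors of dorsal and medial brain, had 63 and 44 UMIs in members and none in the compared cells, at least 7.49-fold and 5.23-fold higher against a floor of 3 UMIs over the group. Tbx3os1 was likewise at least 5.12-fold higher. Ctbp2, Rab31 and Tex9 had no UMI in the compared cells either, with bounds of 2.38- to 3.81-fold, and Ephb2 and Pex2 had 1, with intervals that began at 1.78 and 1.59. Without the cells with at least 2 habenula- and thalamus-like markers, an alternative added after seeing the data, 40 genes in place of 69 were at least 2-fold higher.

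Of the 16 tuberal field factors, 4 had 50 UMIs in members and Ghrh/Th-positive Dlx neurons together, and each reached that limit through its UMIs in members, so their direction is no result for the list. Nkx2-1 was at a ratio of 4.09 (2.32 to 7.86), Six6 at 2.14 (1.12 to 4.50) and Six3 at 2.06 (1.29 to 3.44), beside Tbx3. Cited1 was at 3.18 (2.21 to 4.71). Isl1 was found in 64.5% of the compared cells and 41.4% of members, with a CPM ratio of 0.767 (0.561 to 1.06). Dlx5 stood at 1.92 (1.05 to 3.79), and Dlx6 had 31 UMIs in members and 3 in compared cells.

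Against other neurons, the remaining leading genes on the higher side lay between 2.68- and 3.40-fold. They were Gm13889, Gad1, Rgs4, Tbx3os1, Tbx3, Irs4, an insulin receptor substrate of the hypothalamus, Nrxn3, a presynaptic neurexin, Plagl1, an imprinted zinc-finger gene, Slc32a1 and Asb4. Irs4 had a UMI in 34 members (20.1%) against 5.55%, and Nrxn3 in 88 (52.1%) against 23.9%. Plagl1 was found in 30 members (17.8%), in 9.33% of other neurons and in 46.5% of collagen cells. Of 11 tuberal field factors tested, Tbx3 and Rax were at least 2-fold higher and Nkx2-2, Fezf1, Sox14 and Nr5a1 lower, where 2.46% of all genes were higher and 8.58% lower. The median log2 ratio of that list was -0.66. Of 4 Ghrh-lineage factors, Hmx2 and Gsx1 were higher and Prox1 lower.

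Nkx2-1 was at 1.54-fold the level of other neurons (1.29 to 1.81) and Isl1 at 1.10-fold (0.914 to 1.31). The Isl1 log2 ratio of 0.14 became -0.25 without cells with at least 2 habenula- and thalamus-like markers, 0.53 with at least 2 Dlx UMIs and 0.79 in cells at or above the median depth. The Nkx2-1 log2 ratio of 0.62 became 0.31 without the cells with those markers and 0.13 at or above the median depth. Cells with those markers were left out of members and other neurons alike. Of 40 timing and region factors, Onecut1, Onecut2 and Zfhx4 were at least 2-fold higher, with Zfhx4 found in 63 members (37.3%) against 20.9%. Of 7 at least 2-fold lower, 6 were Bcl11b, Nr2f1, Nr2f2, Ebf1, Pou3f1 and Nr4a2. Of all genes, 2.46% were higher and 8.58% lower, and the median log2 ratio of the list was -0.32. None of the 18 neuron maturation genes was 2-fold apart, and their median log2 ratio was -0.39 against -0.03 for all genes.

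Among genes with at least 20 UMIs in other neurons and a UMI in at least 10% of them, those lower in members were led by Sox14, a factor of the ventromedial field, at 15.48 against 79.8 CPM, 5.15-fold lower (2.70 to 11.3). Cacna2d1, a calcium channel subunit, was 5.09-fold lower and Nptx2, a synaptic pentraxin, 4.86-fold. Lhx9, a LIM homeodomain factor of thalamus, was 3.42-fold lower (2.46 to 4.89) and Gng8, a G-protein subunit of habenula, 3.28-fold (2.48 to 4.44). Rbfox1, S100a10, Chchd10, Enc1, Clybl, Serpine2, Ept1, Vav3, Slc17a6 and Prmt8 made up the rest, at 3.18- to 4.12-fold. Of the 5 ventromedial neuron markers 4 were at least 2-fold lower in members, and of the 9 habenula- and thalamus-like markers 4 were, against 8.58% of all genes.

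Peptide genes were scarce in members. Of 15 neuropeptide genes tested against other neurons, Pnoc alone was at least 2-fold higher and Npy, Agrp, Sst, Tac1, Tac2, Nts, Avp and Adcyap1 were at least 2-fold lower, against 2.46% and 8.58% of all genes. The median log2 ratio of the list was -1.11. Npy, Agrp and Sst belong to Otp neurons, and Otp was at 0 by the rule. Pnoc, the nociceptin precursor, was found in 15 members (8.88%, 5.05 to 14.2%), 13 with 1 UMI and 2 with 2. It was absent from the 168 Lhx1-positive Dlx neurons, so its level in members was at least 5.03-fold higher against a floor of 3 UMIs. It was present in 10 of 62 Ghrh/Th-positive Dlx neurons (16.1%, 8.02 to 27.7%) and 3.18% of other neurons. Tac1, the substance P precursor, was found in 12 members, 11 of them with 1 Dlx UMI. Its log2 ratio to other neurons of -1.11 was -0.50 in cells at or above the median depth. It was -0.96 without cells, in either group, with at least 2 habenula- and thalamus-like markers.

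**Figure D3:**
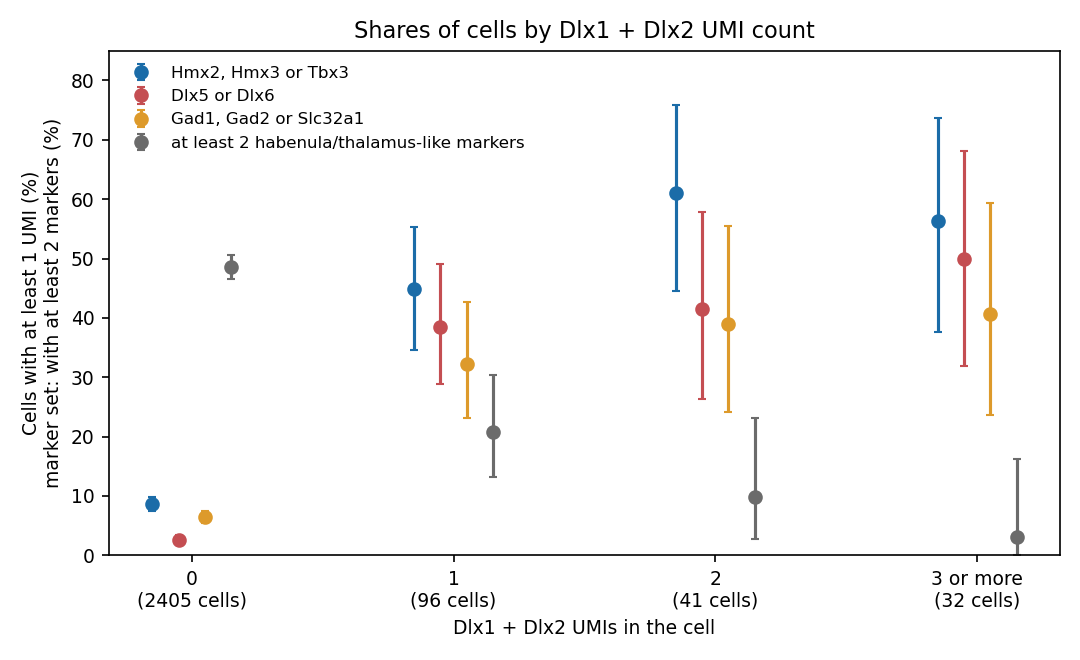
Share of cells (%) by the number of Dlx1 and Dlx2 UMIs in cells that otherwise meet the rule, for 3 sets of genes (at least 1 UMI of any) and for at least 2 of 9 habenula- and thalamus-like markers, with exact 95% binomial intervals for counting error. The 3 sets go from at most 8.61% at 0 Dlx UMIs to at least 32.3% at 1, while the marker share goes from 48.6% at 0 to 20.8% at 1 and 3.12% at 3 or more.

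The rule places a limit between 0 and 1 UMI of Dlx1 and Dlx2, and cells on both sides were counted. The 2405 neurons that met every other condition with no Dlx UMI had a median of 3640 UMIs, and the 96 members with 1 Dlx UMI had 2987. Hmx2, Hmx3 or Tbx3 was found in 8.61% of the former and 43 of the latter (44.8%, 34.6 to 55.3%), and in 43 of the 73 members with 2 or more (58.9%, 46.8 to 70.3%). The share with a GABA gene was 6.44%, 32.3% (23.1 to 42.6%) and 39.7% (28.5 to 51.9%), and with Dlx5 or Dlx6 2.66%, 38.5% and 45.2%. For these 3 sets the intervals of members with 1 and with 2 or more Dlx UMIs overlap. Dlx6os1, the RNA antisense to Dlx6, was found in 10.4% with 1 Dlx UMI (5.11 to 18.3%) and 34.2% with 2 or more (23.5 to 46.3%), and its level was 47.5 CPM (27.2 to 77.2) and 155 CPM (110 to 213), so neither pair of intervals overlaps. For Nhlh2, Pou4f1, Tac1, Tcf7l2, Cbln2, Gng8 and Zic1, lower with 2 or more Dlx UMIs, the intervals of the pooled levels did not overlap and those of the shares of cells did. The same held for Irs4, Isl1 and Dlk1, which were higher with 2 or more. Irs4 was at 41.6 CPM with 1 Dlx UMI (22.7 to 69.8) and 114 with 2 or more (76.1 to 165). Isl1 was at 172 (131 to 223) and 290 (227 to 366), and Dlk1 at 1236 (1120 to 1360) and 1627 (1471 to 1795). Nhlh2, a basic helix-loop-helix factor, was at 208 CPM with 1 Dlx UMI (162 to 263) and 65.4 with 2 or more (37.4 to 106), Pou4f1 at 282 (228 to 345) and 16.4 (4.46 to 41.9), and Tac1 at 59.4 (36.3 to 91.7) and 4.09 (0.104 to 22.8). At least 2 habenula- and thalamus-like markers, described below, were found in 20.8% (13.2 to 30.3%) and 6.85% (2.26 to 15.3%), intervals that overlap.

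Near the other limits, the 30 cells with 1 Stmn2 UMI, just outside, had Hmx2 in 20% and a GABA gene in 33.3%, and the 32 members with 2 had 40.6% and 34.4%. The 24 Lhx1-positive Dlx neurons with only 1 UMI of Lhx1 and Lhx1os had Six6 in 70.8% and Hmx2 in none, against 91.7% and 2.08% of the 144 with more and 26.0% and 31.4% of members. Of the 12 cells with 1 UMI of Ghrh and Th, 4 had Hmx2, 4 had Prox1 and none had Tbx3. The 26 members with 1 or 2 Pomc UMIs had Isl1 in 26.9%, and all 5 cells kept out only by 3 or more had Isl1. The 56 cells kept out by Otp alone had Isl1 in 87.5%, Six6 in 60.7% and Hmx2 in 39.3%.

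Some members carried markers of habenula- and thalamus-like neurons. At least 2 of the 9 habenula- and thalamus-like markers were found in 25 members (14.8%, 9.81 to 21.1%), in 7.74% of Lhx1-positive Dlx neurons (4.18 to 12.9%), 1.61% of Ghrh/Th-positive Dlx neurons, 35.3% of other neurons and 8.91% of collagen cells (4.16 to 16.2%). The intervals of Lhx1-positive Dlx neurons and collagen cells overlap that of the members. At least 2 markers were found in 19 of the 55 members at or above the median depth and in 6 of the 114 below it. One of the 9, Tcf7l2, was also found in 50.5% of collagen cells. At least 3 were found in 16 members, all at or above the median depth of kept cells, and in none of the 114 members below it. All 9 markers had UMIs in members, with a summed level of 1096 CPM, against 316 in Lhx1-positive Dlx neurons, 2 markers being at 0 there, 96.4 in Ghrh/Th-positive Dlx neurons and 2095 in other neurons. Tcf7l2 was at 5.56-fold the level of Lhx1-positive Dlx neurons (4.14 to 7.60). By Dlx count, at least 3 markers were found in 14 of 96 members with 1 Dlx UMI, 2 of 41 with 2, and 0 of 32 with 3 or more (0 to 10.9%).

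Pou4f1, a POU factor of habenula neurons, was found in 15 members, of which 11 had 3 or more UMIs and the highest 19. All 15 also had Tcf7l2 and Zic1, and 14 had Cbln2 and 14 Nhlh2, against 36.4%, 16.2%, 6.49% and 6.49% of the other 154 members. None had Tbx3 and 1 had Hmx2. Their median depth was 5612 UMIs against 2838 in the rest. Droplets that caught 2 cells were not removed, and their part in these values was not tested.

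With these markers and the Hmx2, Hmx3 and Tbx3 set, the 169 members fell into 80 cells with a factor of the set and fewer than 2 markers, 19 with at least 2 markers and no such factor, 6 with both, and 64 with neither. Of the 80, 45 had Nkx2-1, 57 Cited1, 42 Isl1, 30 a GABA gene and 2 Slc17a6. Of the 19, 2 had Nkx2-1, 3 Cited1, 3 Isl1, 4 a GABA gene and 6 Slc17a6, and 2 had 2 or more Dlx UMIs. The 64 with neither had a lower median depth, 2618 UMIs against 2953 for the 80, and of them 27 had Nkx2-1, 24 a GABA gene and none Slc17a6. Without the 25 cells with at least 2 markers, 144 members remained, 37.5% with a GABA gene, 50% with Nkx2-1, 43.8% with Isl1 and 1.39% with Slc17a6.

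**Figure D4:**
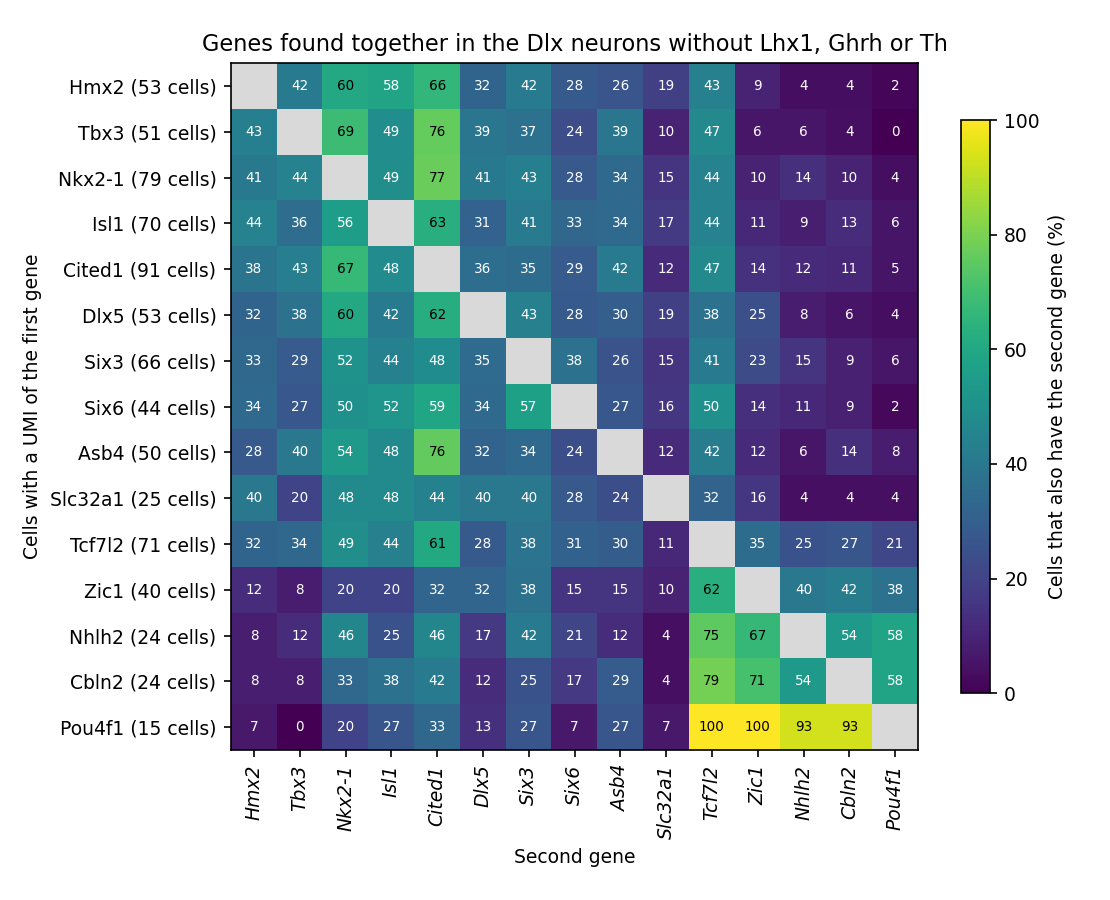
For members with a UMI of the gene at left, the share (%) that also has the gene below, from 0 (dark) to 100 (yellow), as a description of the same 169 cells. Of members with Tbx3, 68.6% have Nkx2-1 and 23.5% have Six6, and of members with Pou4f1, 93.3% have Cbln2 and none has Tbx3.

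For some pairs of tuberal genes the share with the second gene was higher in members with the first, and for other pairs the intervals overlap. Nkx2-1 was found in 35 of the 51 members with Tbx3 (68.6%, 54.1 to 80.9%) and in 44 of the 118 without (37.3%, 28.6 to 46.7%), at median depths of 2980 and 2898 UMIs. Cited1 was found in 61 of the 79 members with Nkx2-1 (77.2%, 66.4 to 85.9%) and in 30 of the 90 without (33.3%, 23.7 to 44.1%). Isl1 was found in 31 of the 53 members with Hmx2 (58.5%, 44.1 to 71.9%) and in 39 of the 116 without (33.6%, 25.1 to 43.0%). Hmx2 was found in 22 of the 51 members with Tbx3 (43.1%, 29.3 to 57.8%) and in 31 of the 118 without (26.3%, 18.6 to 35.2%), which overlap. Six3 was found in 37.3% of members with Tbx3 and 39.8% of those without, and Six6 in 23.5% and 27.1%. With and without Nkx2-1, Six6 was found in 27.8% and 24.4% and Six3 in 43.0% and 35.6%. Zic1 was found in 3 of the 51 members with Tbx3 (5.88%, 1.23 to 16.2%) and in 37 of the 118 without (31.4%, 23.1 to 40.5%). The share of members with Slc32a1 was 18.9% with Hmx2 and 12.9% without, with intervals that overlap.

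Of the 34 factors on the lists found in 10 to 60% of members, those that split them into the most genes at least 2-fold apart were found in few cells. Among 1880 genes with at least 50 UMIs in members, Zic5 (20 members) had 171 genes apart (9.1%), Nfib (24) 144 (7.66%), Lhx9 (19) 141 (7.5%), Foxp4 (18) 111 (5.9%) and Nfia (23) 108 (5.74%). A gene at the limit had 6.44 to 10.1 UMIs due in such a small set of cells, so most of these calls rest on few UMIs. The leading genes lower in each split were at 0 in the cells with the factor, and some of their intervals for the ratio reach 1.

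Members with Lhx9 had Pou4f1 in 12 of 19, at 942 against 22.5 CPM in the 150 without, a ratio of 41.8 (22.3 to 86.8), and Gng8 in 12, at 58.8-fold (21.4 to 225). Cpne4, Nwd2 and Ebf1 were the other leading genes, at 19.6- to 105-fold, with 1, 3 and 8 UMIs in members without Lhx9 and intervals that began at 16.7, 32.3 and 8.78. The median depth was 5083 UMIs with Lhx9 and 2834 without. Members with Zic5 had Zic1 in 18 of 20, at 9.69-fold (6.49 to 14.6), beside Lmo1, Pantr1, Lhx9 and Ebf1. Members with Nfib or Nfia, nuclear factors of late neurons and glia, had higher Fabp7, a lipid carrier of radial glia, at 7.0-fold (3.74 to 13.5) and 9.03-fold (4.79 to 17.7), from 5 of 24 and 6 of 23 cells. Mt3, Ccnd2 and Lmo1 led both splits too, Tcf4 led that by Nfia, and H19 had 37 of its 39 UMIs in 4 cells with Nfib. With Foxp4, Gng8, Ptn, Gm2694, Zic4 and Fbl were 2.86- to 5.07-fold higher.

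Markers of other cell types were counted over whole lists. The 6 fibroblast markers summed to 27.5 CPM in members, 33.8 in other neurons and 5323 in collagen cells, with Dcn and Lum at 0 in members. The 8 macrophage markers summed to 6.88 CPM in members and 15.1 in other neurons, and the 10 pituitary markers to 43.0 and 89.6. The 8 endothelial and mural markers summed to 25.8 and 25.3 CPM, and the 6 erythroid markers to 256 and 284. The 6 oligodendrocyte precursor and astrocyte markers summed to 13.8 CPM in members (5.94 to 27.1), 5.25 in other neurons and 134 in collagen cells. The 7 cycling genes summed to 119 CPM (92.4 to 150) in members and 100.3 in other neurons. The 8 telencephalic and preoptic factors had 6 UMIs in members, 10.3 CPM (3.79 to 22.5), with 4 of the 8 at 0. Their level was 2.15 CPM in other neurons (1.47 to 3.04), 19.3 in Ghrh/Th-positive Dlx neurons (5.25 to 49.4) and 34.7 in collagen cells, with no UMI in Lhx1-positive Dlx neurons. The part of these cell types in the results was not tested.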

How the data were processed

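Gene expression was measured in single cells by droplet RNA-seq with 3′ UMIs (10x Chromium). The submitters' processing notes name Cell Ranger 2.1.1, STAR 2.4.0, Seurat 2.0 and the build mm10. The deposited table holds raw UMI counts of 27998 genes in 6465 distinct barcodes of 1 library, with no map of barcodes to the 4 sequencing runs. No barcode could be shared between libraries.

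The members, gene lists and comparisons were chosen with earlier results of these data known. Counts were summed over the cells of a group and divided by the group's total UMIs (CPM). With 1 library there was no test. A gene was called where the CPM ratio was at least 2 or at most 0.5 and it had at least 50 UMIs in both groups together. Intervals are 95% exact: Clopper-Pearson for shares, Poisson for CPM and conditional binomial for ratios, and they cover counting error only. Against a count of 0, a floor of 3 UMIs over the group was used. For thinned shares each cell was drawn down to 2167 UMIs, a depth that 10% of kept cells did not reach. Doublets were not called, and an alternative left out the 10% of members with the most UMIs. The text names the genes of the rule, genes of 26 lists (305 of 306 genes found), up to 15 leading genes each way against other neurons and up to 10 against each Dlx group. A leading gene had at least 20 UMIs, and a UMI in at least 10% of cells, of the group where it was higher. Leading genes were picked by their ratio, so their intervals take no account of that choice. Some of them fall short of the limit of 50 UMIs for a call. Splits used list factors found in 10 to 60% of members, and those among the 6 with the most genes apart are given, with up to 5 leading genes each way. Some genes that these rules pick are not reported here. Ratios with their intervals were checked on simulated counts. Positions are from GENCODE on GRCm38, the assembly that mm10 names, and promoter windows from RefSeq on GRCm38.p6. Computation used scipy 1.17.1, numpy 2.4.6 and pandas 2.3.3 under Python 3.11.15, and plots matplotlib 3.10.9. Whether the counting used strand is not given in the sources used here, so counts of Dlx1, Tbx3 and Prox1 and of their overlapping antisense genes may be mixed.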

Additional observations from a re-analysis of the deposited data

How the results depend on the processing

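No paired analysis was possible because the table is 1 pooled library with no map of cells to runs or embryos, and no replicate could be left out. Of 100 recomputed counts and shares, 64 stayed within 1.5 times the reported count or within the interval of the reported share. The members numbered 73 with at least 2 Dlx1 and Dlx2 UMIs and 55 at or above the median depth. With at least 2 Dlx UMIs, the genes higher and lower were 581 and 1836 against other neurons, 19 and 37 against Lhx1-positive Dlx neurons, and 20 and 29 against Ghrh/Th-positive Dlx neurons. In that setting the 96 members with 1 Dlx UMI were counted among other neurons, and the smaller member group left fewer UMIs to each gene. The number of genes tested differs by setting, so these counts are not shares and do not rank how distinct the members are. At or above the median depth, 468 genes were higher than in other neurons, and 21 higher and 21 lower than in Lhx1-positive Dlx neurons. With a limit of 20 UMIs the counts were 565 and 1435, 241 and 206, and 379 and 216. With a limit of 500, chosen after seeing the data, they were 17 and 99, 1 and 2, and 0 and 0, since few genes reach 500 UMIs in the small Dlx groups. Without the tenth of members with the most UMIs, 33 genes were higher than in Lhx1-positive Dlx neurons. Without cells with at least 2 habenula- and thalamus-like markers, also chosen after seeing the data, 40 were higher than in Ghrh/Th-positive Dlx neurons.

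The share of members with a GABA gene was 13.0% at a limit of 2 UMIs and 28.0% after thinning. The Slc17a6 share of 4.73% became 1.32% without the deepest members, 1.39% without the marker cells, 1.78% at 2 UMIs and 14.5% at or above the median depth. The Isl1 share was 52.7% at or above the median depth and 17.2% at 2 UMIs. The Nkx2-1 share was 21.3% at 2 UMIs and 35.7% after thinning, and the Sp8 or Sp9 share was 0.592% at 2 UMIs. Of 263 recomputed log2 ratios of 45 gene comparisons, 33 left their reported interval and 3 changed sign, none of the 3 in a gene 2-fold apart. Against other neurons, the 2-fold difference was lost at or above the median depth for Slc17a6 (-0.81), Tac1 (-0.50) and Nhlh2 (-0.63). It was also lost without the marker cells for Gad2 (0.85), Dlk1 (0.97) and Tac1 (-0.96), where such cells were left out of both groups. It was lost for Six3 against Lhx1-positive Dlx neurons with at least 2 Dlx UMIs (-0.89). Against Ghrh/Th-positive Dlx neurons it was lost for Asb4 with at least 3 Stmn2 UMIs (-0.93), without the deepest members (-0.97) and without the marker cells (-0.87). At a median of 2947 UMIs per member, a cell with no UMI of a gene may still express it.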

Other observations

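Gene groups not described above were compared with other neurons by the same rule, in which a gene is at least 2-fold apart, as 2.46% of all genes were on the higher and 8.58% on the lower side. None of the 8 immediate-early genes and none of the 6 hormone receptors tested was 2-fold apart. The immediate-early genes summed to 1156 CPM in members (1070 to 1247), 1004 in other neurons and 4918 in collagen cells, and against Lhx1-positive Dlx neurons Junb, an AP-1 subunit, was at 2.23-fold (1.45 to 3.50). Of 12 GABA receptor subunits and 15 genes of interneuron subtypes tested, none was higher, 2 and 3 were lower, and among the latter Robo2, a guidance receptor, was 2.53-fold lower (1.47 to 4.77). Of 7 Pomc- and Kisspeptin-lineage factors, Asb4 was higher and Nhlh2, Prdm12 and Sox21 were lower. Of 9 LIM homeobox and Lmo genes, Lhx3, Lhx5 and Lhx9 were lower, with Lhx5 at 0 UMIs in members.

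Of 6 progenitor genes tested against Lhx1-positive Dlx neurons, Vim and Fabp7 were at least 2-fold higher and Insm1 and Gadd45g at least 2-fold lower, against 1.48% and 1.69% of all genes. Vim, an intermediate filament of radial glia and young cells, had 122 UMIs in members and 29 in Lhx1-positive Dlx neurons, a CPM ratio of 3.73 (2.47 to 5.80). Fabp7 was at 3.21-fold there (1.71 to 6.46), while Gadd45g, a growth arrest gene, was 2.51-fold lower in members (1.49 to 4.36). Against Ghrh/Th-positive Dlx neurons, Vim was at 6.22-fold (2.93 to 15.8) and Zfhx3, a homeodomain zinc-finger factor, at 3.40-fold (2.28 to 5.26). Of the 47 Fabp7 UMIs in members, 30 lay in 5 cells with Nfib. Gap43, a growth cone protein, was at 998 CPM in members, 698 in Lhx1-positive Dlx neurons, 1234 in Ghrh/Th-positive Dlx neurons and 1441 in other neurons.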
